A study of Mus musculus with 32 samples.

Results

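Tumor cells recovered from liver metastases (TM) were set against resident macrophages from livers without tumor, the control Kupffer cells (KC), to describe which tumor and resident macrophage programs separated them. The 8 libraries labelled KC or TM, 4 of each, were chosen out of 32 by their labels, because both groups carried the dye Cy3 and lay on the same slide. The KC libraries came from male Balb/c mice aged 6 to 8 weeks whose spleens had been injected with PBS. The mice of the TM group had the same sex, strain and age and had received C26 cells, a mouse colon carcinoma line syngeneic with Balb/c, in the spleen. Livers were taken 14 or 15 days later, on which the sources differ, and the labels name no allele or transgene. Kupffer cells were separated from collagenase-perfused livers on density gradients and by adherence, and were held in culture for at most 24 h. The preparation of the TM cells was not given in the sources used here, and all TM libraries derive from a single tumor line, which limits what they stand for. Each library was 1 channel of a two-color oligonucleotide array, and the KC and TM channels shared their arrays with Cy5 channels of Kupffer cells from tumor-bearing livers (KT) and of the primary tumor (TP), respectively.

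Kupffer cells are macrophages that sit inside the liver sinusoids, where they take up particles, aged red cells and bacterial products from portal blood. They keep a tissue-specific identity (a C-type lectin, Clec4f, and the phosphatidylserine receptor Timd4 among its marks) on top of a general macrophage program that is driven by colony-stimulating factor 1 and the transcription factor PU.1. They also display antigen on class II molecules, make complement, and answer microbial patterns and interferon with cytokines and antiviral genes. A carcinoma line, in contrast, cycles: it copies its DNA, builds spindles and divides, and it may carry epithelial, mesenchymal or developmental genes of its own.

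The libraries did not spread evenly. Over the 17032 probes well above background on all arrays, the standard deviation (SD) of the log2 difference between the libraries labelled KC replicates 1 and 2 was 0.148, or 1.33 times the 0.112 expected from repeated spots. This lay under a limit of 1.5 times that was set after the values were seen, and both were averaged and counted as 1 sample (KC n = 3, TM n = 4). KC replicate 3 lay 0.683 to 0.795 from the other KC libraries and had 44.6% of its spots well above background, against 52% to 53.4% in those. The library labelled KC replicate 4 differed from KT replicates 1, 2 and 3 by 0.175, 0.178 and 0.195, but from KC replicates 1 and 2 by 0.412 and 0.463. Conversely, the library labelled KT replicate 4 lay 0.169 and 0.204 from KC replicates 1 and 2. Some of these pairs, KC 1 with KT 4 (1.33 times the spot noise) and KC 4 with KT 1 and KT 2 (1.42 and 1.45 times), were also under the limit, but they carry different labels and were not merged. The libraries labelled KC 4 and KT 4 thus each lay closer to the other Kupffer group, and counts are therefore also given without KC replicates 3 and 4, which leaves the mean of replicates 1 and 2 as a lone KC sample assumed to vary like the other groups. Among the tumor libraries, TM replicates 2 and 3 differed by 0.237 and TM replicates 1 and 4 by 0.333, while values between these pairs ran from 0.637 to 0.681. TM replicate 1 lay 0.295 from TP replicate 3, and TM replicate 4 lay 0.306 and 0.234 from TP replicates 1 and 2. These values were smaller than the distance between TM replicates 1 and 4. In contrast, TM replicates 2 and 3 lay 0.592 to 0.769 from the TP libraries. Every KC library was far from every TM library, at 1.25 to 1.52. Control endothelial cells (EC) and control Ito cells (IC) serve below for reference only. IC replicate 4 lay 0.589 to 0.634 from IC replicates 1 to 3, but 0.179 from replicate 1 of Ito cells from tumor-bearing livers. Conversely, replicate 4 of those lay 0.199 from IC replicate 1. IC ranges over all 4 replicates take 1 of their ends from IC replicate 4. Of the spots, 44.3% to 50.3% were well above background in TM and 44.6% to 53.4% in KC, and no spot was saturated.

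**Figure D1:**
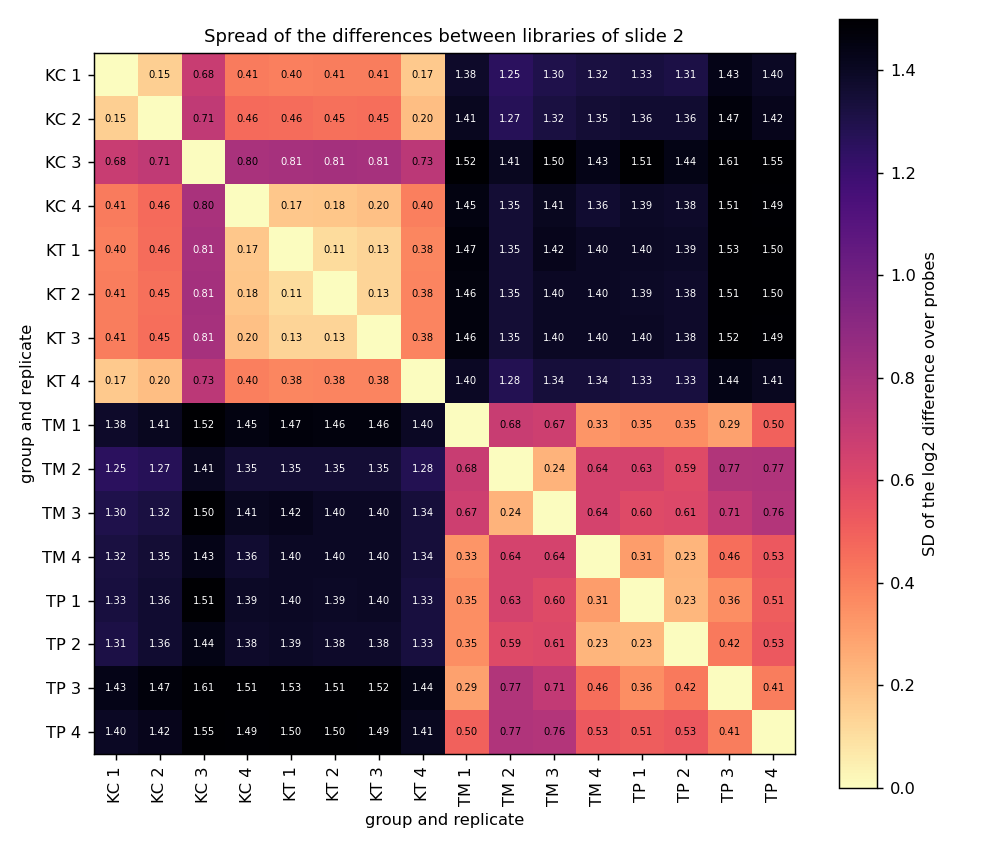
Distance between libraries of the KC, KT, TM and TP groups, as the SD of the log2 difference over 17032 probes (color scale, log2 units, both axes list the libraries). Kupffer and tumor libraries form separate blocks (KC to TM at least 1.25), KC replicate 4 sits with KT replicates 1 to 3, and TM replicates 2 and 3 sit apart from replicates 1 and 4.

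Levels are given as log2 of the quantile-normalized intensity of a gene's brightest probe, and levels of different probes are not compared with each other. *Clec4f*, the defining Kupffer lectin (probe at chr6:83595281-83595339, mm9), read 15.75, 15.62, 14.51 and 16.3 in KC replicates 1 to 4 and 3, 2.63, 3.26 and 2.34 in the TM replicates. The groups were wide apart and no TM array held the probe well above background, so that only a bound, computed after a separate normalization of the channels, is available: *Clec4f* was at least 463-fold lower in TM (adjusted p = 2.55e-09 in limma). *Mki67*, which encodes the proliferation antigen Ki-67, read 8.08, 8.48, 6.26 and 7.79 in KC and 13.33, 10.1, 10.89 and 12.77 in TM. It rose by 4.33 ± 0.66 on the log2 scale (SE, adjusted p = 4.8e-05), and its lowest TM value exceeded its highest KC value. The groups did not overlap for either marker. In EC *Clec4f* read 12.8 to 12.82 and in IC 14.36 to 15.92, so its high level was not particular to KC.

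Neither group was free of other cell types' transcripts, and most of these moved with the comparison. The albumin gene *Alb* read 11.84 to 14.29 in KC but 2.28 to 2.61 in TM, at least 100-fold lower. Of 20 hepatocyte markers, 17 fell and 16 were not well above background on any TM array. The mean level of that list ranged from 8.34 to 10.17 in the KC libraries and from 3.25 to 3.63 in TM. Sinusoidal endothelial markers fell for 17 of 20 genes, with list means of 10.22 to 10.77 in KC and 4.66 to 5 in TM, and 8 of them were not well above background on any TM array. Without KC replicates 3 and 4 the endothelial count was 11. Stellate cell and fibroblast markers fell for 9 of 17 genes and rose for 1, with means of 8.48 to 8.73 against 5.27 to 6.16, and the falls numbered 5 without KC replicates 3 and 4. For reference, stellate list means were 8.59 to 9 in control Ito cells. Endothelial list means were 11.71 to 12.07 in control endothelial cells and 10.14 to 10.8 in control Ito cells. The study reported high purity of its cell fractions by immunochemistry. B and plasma cell markers fell for 6 of 12 genes (5.27 to 6.49 against 3.14 to 3.83) and erythroid markers for 6 of 11 (7.07 to 7.27 against 3.07 to 3.93). The B cell count was 2 without KC replicates 3 and 4 or with only TM and KC fitted, and 1 with normexp, a model-based background correction. Neutrophil markers fell for 2 of 14 (6.56 to 8.36 against 4.74 to 6.98), 1 without KC replicate 3 or TM replicate 1, 2 or 3, and none without KC replicate 4. T and NK cell markers fell for 2 of 18 (5.25 to 6.41 against 4.56 to 4.7), 1 without KC replicate 3, KC replicate 4 or any single TM replicate, and none with normexp. The neutrophil and the T and NK cell counts were near the 10.2% of all genes that fell at the thresholds given below. In bulk RNA of this kind, fewer cells of a type and less RNA per cell cannot be told apart, and the part of other cell types' transcripts in the results below was not tested.

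Genes were called changed when limma's adjusted p was under 0.001 and the difference at least 4-fold, the thresholds of the study's methods. Of 22443 genes, 1716 rose in TM (7.65%) and 2293 fell (10.2%), and at the level of 55681 probes 3193 rose (5.73%) and 3584 fell (6.44%). These percentages are the background against which the gene lists are read. The groups did not overlap for 25.3% of the 22408 genes with a value in every library in the direction of TM and for 20.1% in the direction of KC, 45.4% in all. At an adjusted p under 0.05 and with no minimum fold, 42.1% of genes passed. The median difference over all genes was 0.06. When the fit held only the TM and KC channels, 791 genes rose and 1164 fell, and without KC replicates 3 and 4 the counts were 964 and 1535.

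**Figure D2:**
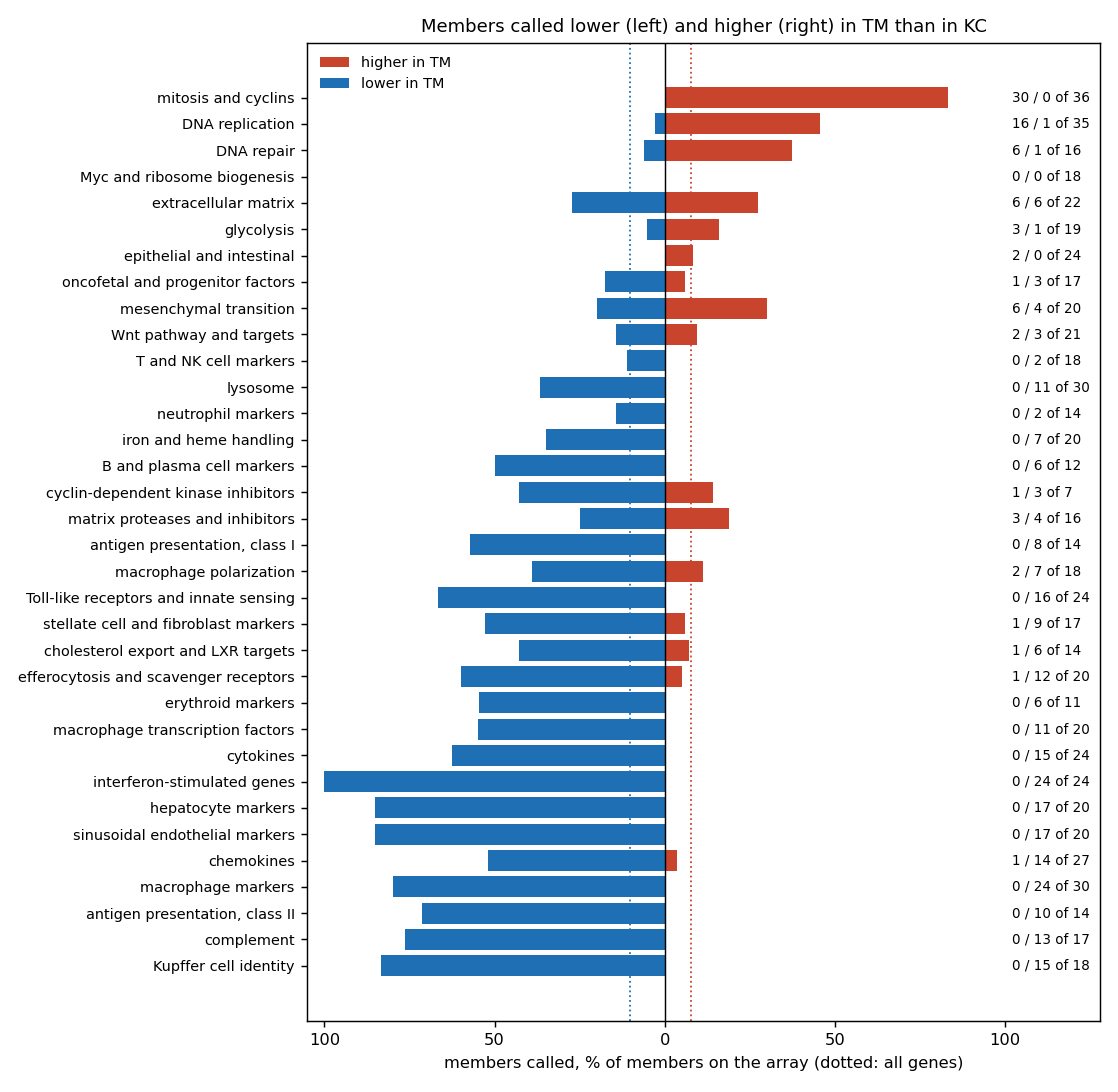
Percentage of the members of each gene list that fell (left) or rose (right) in TM against KC, at an adjusted p under 0.001 and at least 4-fold. Dotted lines mark all genes (10.2% lower, 7.65% higher). Macrophage, antigen presentation, complement and interferon lists extend to the left only or nearly so, and the mitosis and DNA replication lists to the right.

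Kupffer cell identity genes had the most negative median of the 34 lists. High levels were not particular to KC, with list means of 11.6 to 12.99 in KC and 10.93 to 11 in EC. In IC the means were 11.78 to 11.95 in replicates 1 to 3 and 12.87 in replicate 4. Of 18 genes, 15 fell and none rose, with a median difference of -7.77 (-6.74 with genes below background in TM at their bound). *Timd4*, the phosphatidylserine receptor of resident macrophages, read 11.26, 11.28, 11.1 and 11.22 in KC and 2.42, 2.32, 2.29 and 2.23 in TM, at least 26.1-fold lower (adjusted p = 7.55e-09). The 4 KC values were nearly equal, and no TM array held *Timd4* well above background. *Vsig4*, a complement receptor of resident macrophages, read 12.88, 12.93, 11.51 and 13.72 in KC and 3.24, 2.03, 2.05 and 2.03 in TM, at least 87.1-fold lower. *Spic*, the transcription factor of heme-handling macrophages, fell at least 537-fold, and *Clec1b* at least 11.3-fold. *Cd5l*, a secreted macrophage survival factor, behaved differently among the tumor libraries: it read 15.65, 15.6, 15.08 and 18.08 in KC and 6.44, 2.61, 2.48 and 6.65 in TM (-11.71 ± 1.16, adjusted p = 3.84e-07). It was well above background only in TM replicates 1 and 4, as was *Folr2*, a folate receptor of resident macrophages (9.05, 3.73, 4.27 and 9.81 in TM, 14.15 to 15.84 in KC). *Marco*, a scavenger receptor, fell by 9.75 ± 1.07 and spread widely within KC, from 12.44 in replicate 3 to 16.73 in replicate 4. The genes that did not pass were *Nr1h3* (-3.9 ± 0.83, adjusted p = 0.00115), which encodes the oxysterol receptor LXR alpha, the inhibitor of differentiation *Id3* (-1.83 ± 0.58), and *Kcna2*, which was not well above background on any of the 8 arrays. *Cdh5*, counted here because Kupffer cells carry it, is also an endothelial cadherin, and it was at least 104-fold lower. The list held 12 calls without KC replicates 3 and 4, 9 when only TM and KC were fitted, and 14 without TM replicates 2 and 3.

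The general macrophage markers fell for 24 of 30 genes and rose for none (median -6.1), but here the tumor libraries disagreed. The list was also high in the other control cells. Its means were 12.32 to 13.5 in KC and 10.86 to 10.91 in EC. In IC they were 11.79 to 11.87 in replicates 1 to 3 and 12.8 in replicate 4. *Csf1r*, the receptor for colony-stimulating factor 1, read 14.16, 14.01, 13.55 and 14.42 in KC and 10.94, 9.71, 9.32 and 11.66 in TM, and fell by 3.61 ± 0.49 (adjusted p = 1.28e-05). *Cd68*, a lysosomal glycoprotein of macrophages, read 16.41, 16.29, 15.42 and 16.4 in KC and 10.62, 11.23, 10.58 and 11.75 in TM (-5.01 ± 0.37). *Aif1*, an actin-binding protein of macrophages, fell by 9.63 ± 0.85 and *Cybb*, a subunit of the phagocyte oxidase, at least 18.2-fold. Another pattern appeared for *Emr1*, which encodes a classic macrophage surface antigen: KC read 13.02, 13.11, 11.66 and 13.99, and TM read 8.73, 3.04, 2.19 and 8.66. The same split, with TM replicates 1 and 4 high and 2 and 3 low, was present in *Lyz2*, the macrophage lysozyme, at 11.24, 7.84, 7.49 and 11.29. Its KC values were 12.1, 11.82, 10.42 and 12.36, so that the groups overlapped and the gene did not pass (-2.12 ± 0.98, adjusted p = 0.119). *Trem2*, a lipid receptor of macrophages, read 9.56, 9.57, 9.27 and 11.41 in KC and 10.51, 7.37, 6.52 and 11.58 in TM (adjusted p = 0.549). *Mrc1*, the mannose receptor, read 8.06 and 9.36 in TM replicates 1 and 4 against 2.18 and 3.02 in replicates 2 and 3, with at least 8.76 in KC (adjusted p = 0.0303). *Itgam*, which encodes CD11b, ran the other way in all TM libraries, at 11.61, 12.37, 12.23 and 11.89 against 9.34 to 11.07 in KC, without reaching 4-fold (1.67 ± 0.39). The call of *Emr1* was lost without KC replicate 4 or without TM replicate 2, and that of *Ms4a7*, a membrane protein of macrophages, without KC replicate 4. The list held 7 calls without KC replicates 3 and 4, 6 when only TM and KC were fitted, and 20 without TM replicates 2 and 3.

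**Figure D3:**
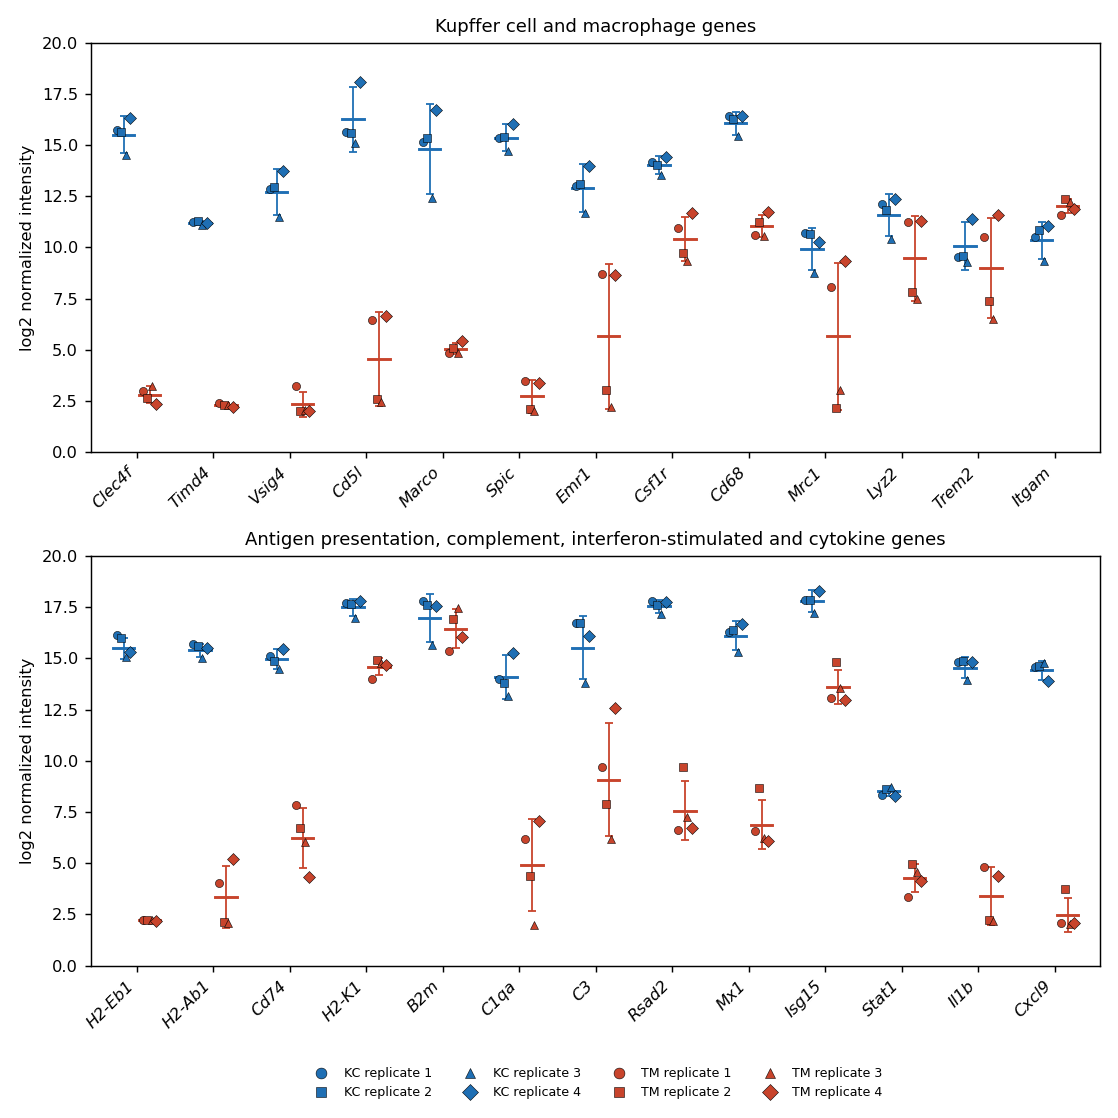
Log2 intensity (y axis) of macrophage genes (upper panel) and of antigen presentation, complement, interferon and inflammatory genes (lower panel) in each KC (blue) and TM (red) library. Points are libraries, bars the group mean and lines the SD (KC n = 3 with replicates 1 and 2 as 1 sample, TM n = 4). *Clec4f* and *Timd4* are at background in all 4 TM libraries, whereas *Emr1*, *Lyz2*, *Mrc1* and *Trem2* are higher in TM replicates 1 and 4 than in 2 and 3.

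Transcription factors of the macrophage lineage fell for 11 of 20 genes (median -4.23). Their list means were 11.55 to 12.02 in KC, 10.4 to 10.52 in EC and 10.82 to 11.22 in IC. *Sfpi1*, which encodes PU.1, read 10.71, 10.22, 10.38 and 11.13 in KC and 4.72, 2.24, 2.19 and 4.87 in TM (-7.15 ± 0.6, adjusted p = 5.48e-08). *Maf* fell by 7.95 ± 0.92, *Irf5* by 7.25 ± 0.46 and *Irf8* by 4.56 ± 0.44, all regulators of macrophage or interferon genes. *Ikzf1*, the lymphoid and myeloid zinc finger Ikaros, was at least 5.34-fold lower. Among the 9 genes that did not pass, *Runx1* differed by -1.71 ± 0.28, *Cebpb* by -1.8 ± 0.4, *Mitf* by -0.45 ± 0.52 and *Id1* by -0.21 ± 0.78. *Zeb2* (-1.92) and *Cebpa* (-1.32) did not pass either. The list held 10 calls without KC replicates 3 and 4, and 5 when only TM and KC were fitted.

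Receptors for dying cells and modified lipoproteins fell for 12 of 20 genes and rose for 1. Their list means were 10.42 to 11.64 in KC, 10.34 to 10.6 in EC and 10.88 to 11.25 in IC. *Siglec1*, a sialic acid receptor of resident macrophages, read 14.33, 14.34, 13.01 and 15.13 in KC and 5.3, 2, 1.93 and 5.52 in TM (-10.47 ± 0.89, adjusted p = 6.53e-08). *Mertk*, a receptor for phosphatidylserine bridges, was even among the tumor libraries, at 7.06, 6.86, 7.29 and 7.1 against 10.19 to 11.18 in KC (-3.66 ± 0.52). *Mfge8*, a secreted bridge between phosphatidylserine and integrins, was the gene that rose, from 12.95, 13.2, 13.13 and 12.99 in KC to 15.42, 15.16, 14.83 and 15.37 in TM (2.13 ± 0.26, adjusted p = 3.68e-06). Its call was lost without KC replicates 3 and 4, where 8 genes of the list fell. *Axl*, a related receptor, differed by -0.63 ± 0.27 and *Scarb1*, the receptor for high-density lipoprotein, by 0.12 ± 0.23.

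Iron and heme handling fell for 7 of 20 genes and rose for none. *Slc40a1*, the iron exporter ferroportin, read 11.69, 11.61, 11.75 and 12.35 in KC and 4.28, 2.23, 2.18 and 6.05 in TM (-8.23 ± 0.97, adjusted p = 2.88e-06). *Slc11a1*, the phagosomal metal transporter, fell by 7.92 ± 0.52 and the heme oxygenase gene *Hmox1* by 2.85 ± 0.35. The ferritin chains did not pass, with differences of -0.75 ± 0.19 for *Fth1* and -0.83 ± 0.21 for *Ftl1*, both under 4-fold. The transferrin receptor *Tfrc* differed by 0.18 ± 0.58. *Slc48a1*, a heme transporter, stood higher in every TM library (12.7 to 13.59 against 10.96 to 11.99) by 1.76 ± 0.28, under the fold required. *Trf* and *Hpx*, which encode the plasma proteins transferrin and hemopexin, fell too, and these are hepatocyte products.

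Cholesterol export and targets of the oxysterol receptors fell for 6 of 14 genes and rose for 1. *Apoe*, the apolipoprotein of macrophages and hepatocytes, read 17.33, 17.17, 15.01 and 18.02 in KC and 8.47, 9.84, 9.71 and 10.25 in TM (-7.19 ± 0.58, adjusted p = 3.55e-08). *Ch25h*, which makes 25-hydroxycholesterol, fell by 9.92 ± 1, *Apoc1* by 9.7 ± 0.4 and the exporter *Abcg1* by 5.6 ± 0.55. *Abca1*, another exporter, differed by -1.4 ± 0.35 and did not pass. In the opposite direction, the fatty acid desaturase gene *Scd1* rose from 6.24, 6.05, 5.9 and 6.65 in KC to 11.85, 11.99, 12.12 and 12.26 in TM, by 5.82 ± 0.36 (adjusted p = 1.75e-09).

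Lysosomal genes fell for 11 of 30 members and rose for none, with a median of -1.51. The most negative differences were those of *Ctsh* (cathepsin H), which fell by 10.1 ± 1.26, *Acp5* (tartrate-resistant acid phosphatase), which fell by 9.33 ± 0.8, and *Ctsc* (cathepsin C), which fell by 8.9 ± 1.28. Genes used in lysosomes of many cells were divided. Among them *Ctsb* (cathepsin B, -2.43), *Npc2* (-2.93), *Lipa* (-3.37) and *Acp2* (-3.18) were called lower. Others did not pass, with -0.78 ± 0.2 for the membrane protein *Lamp1*, 0.66 ± 0.52 for cathepsin L (*Ctsl*) and 0.71 ± 0.35 for the hexosaminidase gene *Hexa*. *Ctss*, cathepsin S, lost its call without KC replicate 4. Without KC replicates 3 and 4, 7 genes fell, and 1 when only TM and KC were fitted.

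Class II antigen presentation fell for 10 of 14 genes and rose for none. The list was also high in the other control cells, with means of 10.16 to 10.84 in KC, 8.76 to 9.3 in EC and 9.53 to 9.91 in IC. *H2-Eb1*, a class II beta chain (probe at chr17:34453075-34453134, mm9), read 16.13, 15.99, 15.09 and 15.32 in KC and 2.25, 2.24, 2.22 and 2.17 in TM. It had the largest fall of all genes named by size and was at least 489-fold lower (adjusted p = 9.7e-16). *H2-Ab1*, another beta chain, read 15.68, 15.59, 15.04 and 15.5 in KC and 4.03, 2.12, 2.09 and 5.19 in TM (-12.03 ± 0.72, adjusted p = 1.13e-09). *Cd74*, the invariant chain, stayed well above background in all TM libraries, at 7.84, 6.71, 6.03 and 4.33 against 14.48 to 15.46 in KC (-8.75 ± 0.89). The costimulatory genes *Cd40* and *Cd86* were at least 188-fold and 99-fold lower. The count was 10 without KC replicates 3 and 4 as well, and 9 when only TM and KC were fitted. *Ciita*, the class II transactivator, was not called: it read 5.19, 5.38, 4.47 and 4.54 in KC and 4.46, 7.08, 4.18 and 4.61 in TM. Its probe was well above background on 3 KC and 2 TM arrays, and the groups overlapped.

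Class I genes fell for 8 of 14 members, by less. List means were 14.35 to 14.8 in KC, 14.67 to 15.09 in control endothelial cells and 14.35 to 14.64 in control Ito cells. The peptide transporter gene *Tap1* fell by 4.89 ± 0.36 and the immunoproteasome gene *Psmb9* by 4.12 ± 0.36. *H2-K1*, a class I heavy chain, read 17.7, 17.66, 16.99 and 17.79 in KC and 14, 14.92, 14.76 and 14.66 in TM (-2.9 ± 0.21, adjusted p = 8.99e-09). Its light chain *B2m* was not separated, at 17.79, 17.61, 15.63 and 17.57 in KC and 15.37, 16.94, 17.48 and 16.03 in TM (-0.52 ± 0.48, adjusted p = 0.495). The endoplasmic reticulum chaperones *Canx*, *Calr* and *Pdia3* differed by 0.23 ± 0.25, 0.35 ± 0.29 and 0.23 ± 0.16. The histocompatibility genes are a family of close copies, and a probe may read several of them.

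All 24 interferon-stimulated genes fell, against 10.2% of all genes. The median difference was -5.27, and the groups did not overlap for any of them, against 20.1% of all genes. *Rsad2*, which encodes the antiviral protein viperin, read 17.8, 17.59, 17.19 and 17.77 in KC and 6.61, 9.68, 7.28 and 6.7 in TM (-9.98 ± 0.59, adjusted p = 9.76e-10). *Mx1*, an antiviral GTPase, read 16.28, 16.39, 15.3 and 16.69 in KC and 6.55, 8.67, 6.25 and 6.07 in TM (-9.23 ± 0.61). *Irf7*, the regulator of the type I interferon response, fell by 5.81 ± 0.46, *Stat2* by 4.71 ± 0.33 and *Isg15*, a ubiquitin-like modifier, by 4.19 ± 0.39. TM replicates 2 and 3 had the higher list means (11.38 and 10.21, against 9.28 and 9.39 in replicates 1 and 4), the reverse of their order in the macrophage markers. List means were as high in other control liver cells, at 15.29 to 15.9 in KC, 15.05 to 15.59 in control endothelial cells (EC) and 15.35 to 15.68 in control Ito cells (IC). The count was 21 without KC replicates 3 and 4, and 12 when only TM and KC were fitted. Members of the *Ifit*, *Oas* and *Gbp* families are close copies whose probes may read each other.

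The promoters of this list are shown because its members moved together. Interferon-regulated promoters are known for a direct repeat, searched here as GAAA, any 2 bases and GAAA again, and of 20 RefSeq promoters (18 of the 24 genes matched; GRCm38.p6, 250 bases before to 50 after the start) 11 held it on either strand, or 55%, against 3.44% of 32851 mouse promoters. A second pattern, TTTC, any 2 bases and TTCCGG, was in 0 of the 20 and in 0.0913% of all. The 150 bases before the start site are given, 5′ to 3′ on the gene's strand, with the element in capitals where it reads on either strand; they lie at chr12:26456453-26456602 (minus strand), chr19:34640739-34640888 (plus) and chr4:156200819-156200968 (minus).
Rsad2: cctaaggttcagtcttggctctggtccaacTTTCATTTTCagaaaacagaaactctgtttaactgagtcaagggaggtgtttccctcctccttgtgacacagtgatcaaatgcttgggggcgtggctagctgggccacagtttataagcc
Ifit1: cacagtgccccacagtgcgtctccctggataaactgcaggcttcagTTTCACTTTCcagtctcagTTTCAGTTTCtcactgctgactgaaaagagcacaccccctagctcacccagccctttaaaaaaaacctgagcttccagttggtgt
Isg15: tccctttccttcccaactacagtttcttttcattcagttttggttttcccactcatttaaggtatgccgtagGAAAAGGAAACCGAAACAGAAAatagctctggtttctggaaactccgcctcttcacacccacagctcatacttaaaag
A match of letters is a description of these windows. For comparison, the PU.1 element GAGGAAGT was in 2 of 25 macrophage marker promoters (8%, against 3.2% of all).

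Toll-like receptors and other innate sensors fell for 16 of 24 genes. List means were 10.31 to 11.03 in KC, 9.24 to 9.5 in EC, 9.57 to 9.71 in IC replicates 1 to 3 and 10.36 in IC replicate 4. *Tlr2*, the receptor for bacterial lipoproteins, read 13.2, 13.27, 13.86 and 12.9 in KC and 5.89, 3.24, 2.23 and 5.97 in TM (-9 ± 0.77, adjusted p = 6.7e-08). *Nod2*, a cytoplasmic sensor of peptidoglycan, was at least 34.3-fold lower, and the shared adapter *Myd88* fell by 2.87 ± 0.18. *Tlr4*, the endotoxin receptor, did not pass (10.06 to 10.76 in TM against 11.67 to 12.55 in KC, -1.66 ± 0.47, adjusted p = 0.0105). *Tlr9* differed by -0.66 ± 0.13 and *Irak4* by -0.6 ± 0.52. The count was 9 without KC replicates 3 and 4.

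Cytokine genes fell for 15 of 24 members and chemokine genes for 14 of 27. Chemokine list means were 12.01 to 12.59 in KC, 11.75 to 11.89 in EC and 11.89 to 12.28 in IC. Cytokine list means were 9.57 to 10.57 in KC, 8.92 to 9.28 in EC and 9.71 to 9.87 in IC. *Il1b* read 14.83, 14.89, 13.94 and 14.8 in KC and 4.83, 2.23, 2.17 and 4.39 in TM, at least 249-fold lower (adjusted p = 4.86e-09). *Tnf* read 12.86, 12.69, 12.06 and 12.33 in KC and 5.3, 2.22, 2.3 and 5.75 in TM (-8.49 ± 0.71). *Il10*, the anti-inflammatory interleukin, was at least 25.4-fold lower, and *Ifnb1*, the interferon beta gene, fell by 9.06 ± 0.95. *Vegfa*, the angiogenic factor, did not differ beyond its spread (0.23 ± 0.43), since TM replicates 2 and 3 stood above KC and replicates 1 and 4 below it. *Tgfb3* was higher in all TM libraries (10.27 to 10.86 against 7.77 to 8.35) without passing the p threshold (2.59 ± 0.58, adjusted p = 0.00195). Of the chemokines, *Cxcl9*, an interferon-induced attractant of T cells, was at least 281-fold lower. *Ccl5* read 17.77, 17.45, 16.89 and 18.13 in KC and 8.48, 8.23, 7.29 and 8.08 in TM (-9.52 ± 0.42), with little spread in the tumor group. *Ccl2*, the monocyte attractant, was far more spread, at 14.73, 10.84, 10.48 and 15.04 in TM against 17.15 to 18.38 in KC (-4.8 ± 0.85, adjusted p = 0.000204). The chemokine called higher was *Ccl19* (2.01 ± 0.14), whose call was lost without KC replicate 2, TM replicate 1 or TM replicate 2, and whose most variable probe gave -1.35 instead. The kappa B element, searched as GGGAC joined to TTTCC on either strand, was in 0 of 18 chemokine promoters and in 0.155% of all. Without KC replicates 3 and 4, 11 cytokines and 8 chemokines fell.

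Complement genes fell for 13 of 17 members (median -6.45). List means were 10.79 to 12.72 in KC and 10.9 to 11.07 in EC. They were 11.06 to 11.2 in IC replicates 1 to 3 and 12.9 in IC replicate 4. High levels were thus not particular to KC. *C1qa*, a chain of the first component and a macrophage product, read 14.01, 13.82, 13.15 and 15.27 in KC and 6.2, 4.39, 1.97 and 7.08 in TM (-9.2 ± 1.2, adjusted p = 9.04e-06). *C2* fell by 10.76 ± 0.8, factor B (*Cfb*) by 8.3 ± 0.93 and properdin (*Cfp*) by 4.45 ± 0.58. *C3*, the central component, which hepatocytes also make, read 16.71, 16.73, 13.78 and 16.08 in KC and 9.7, 7.87, 6.16 and 12.58 in TM, and its call was lost without KC replicate 4. The falls numbered 8 without KC replicates 3 and 4, and 5 when only TM and KC were fitted.

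Among genes used to describe macrophage polarization, 7 of 18 fell and 2 rose, against 10.2% and 7.65% of all genes, so that the rises were near that share. *Cd274*, the checkpoint ligand PD-L1, read 15.46, 15.61, 14.82 and 15.6 in KC and 5.7, 8.26, 7.54 and 6.48 in TM (-8.32 ± 0.52, adjusted p = 1.71e-09). *Nos2*, the inducible nitric oxide synthase, fell by 5.52 ± 0.4, while *Arg1* (arginase) spread from 2.32 to 8.43 in TM and did not pass (adjusted p = 0.0177). *Spp1*, which encodes osteopontin, rose from 9.71, 9.62, 8.11 and 9.71 in KC to 15.65, 15.78, 16.28 and 15.66 in TM (6.68 ± 0.56, adjusted p = 5.3e-08). *Fn1*, fibronectin, rose by 5.99 ± 0.68. Both are also products of tumor and stromal cells.

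The mitosis and cyclin genes ran the other way. Of 36 genes, 30 rose and none fell, against 7.65% of all genes higher, with a median difference of 4.93 (4.37 with genes below background in KC at their bound). *Cdk1*, the mitotic kinase, read 5.19, 5.23, 3.4 and 5.34 in KC and 12.11, 9.96, 10.25 and 11.61 in TM (6.33 ± 0.62, adjusted p = 3.31e-07). *Ccnb1*, its partner cyclin B1, read 2.97, 2.93, 3.41 and 4.41 in KC and 13.15, 9.74, 10.54 and 12.47 in TM (7.88 ± 0.83). *Top2a*, the topoisomerase that untangles chromosomes, read 3.46, 2.2, 2.9 and 4.45 in KC and 12.48, 9.14, 9.92 and 11.95 in TM (7.48 ± 0.88). In each of these genes TM replicates 1 and 4 exceeded 2 and 3, and all TM libraries exceeded all KC libraries. *Anln*, anillin of the cleavage furrow, rose by 8.28 ± 0.72, *Plk1*, the polo-like kinase, by 6.02 ± 0.84 and *Birc5*, survivin, by 6.24 ± 0.86. The checkpoint kinase gene *Bub1b* was at least 10.2-fold higher. The 6 genes not called were *Tpx2* (0.22 ± 0.6), which was already high in KC (9.92 to 11.35), *Ccnd1* (1.37 ± 0.38, 13.44 to 13.92 in TM against 11.98 to 12.93 in KC), *Cenpa* (3.12 ± 0.67, adjusted p = 0.00125), *Cenpf*, *Aurkb* and *Ccne2*. The last was not well above background on any of the 8 arrays, and *Aurkb* was so on 1. The call of *Foxm1*, a mitotic transcription factor, was lost without any of KC replicates 3 and 4 or TM replicates 1 and 4. The count of rises was 14 without KC replicates 3 and 4, 32 without TM replicates 2 and 3, and 1 when only TM and KC were fitted.

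Mitotic promoters are known for pairs of CCAAT boxes with a downstream element whose common form is TTTGAA. Of 30 promoters found for 28 of the 36 genes, 22 held CCAAT (73.3%, against 37.4% of all promoters) and 21 held TTTGAA (70%, against 17.9%) on either strand. Both stood in 19 of the 30, against 6.95% of all. The 150 bases before the start are given for 3 of the genes that rose, with both elements in capitals, from chr10:69352913-69353062, chr7:135716380-135716529 and chr4:118437344-118437493 (GRCm38.p6, all on the minus strand and printed 5′ to 3′ on it).
Cdk1: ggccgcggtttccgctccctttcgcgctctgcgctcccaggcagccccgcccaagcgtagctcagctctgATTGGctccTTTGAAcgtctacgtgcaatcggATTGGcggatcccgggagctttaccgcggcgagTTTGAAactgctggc
Mki67: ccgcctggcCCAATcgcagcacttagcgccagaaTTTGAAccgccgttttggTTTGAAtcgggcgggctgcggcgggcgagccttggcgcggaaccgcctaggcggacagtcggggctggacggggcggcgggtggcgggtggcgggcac
Cdc20: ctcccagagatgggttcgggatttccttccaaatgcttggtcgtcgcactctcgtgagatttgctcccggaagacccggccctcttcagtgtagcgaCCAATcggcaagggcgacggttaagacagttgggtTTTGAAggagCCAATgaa
In *Cdk1* the CCAAT box reads on the opposite strand, as ATTGG. *Cdc20*, the activator of the anaphase-promoting complex, read 6.43, 6.28, 7.69 and 6.73 in KC and 13.94, 10.93, 10.97 and 13.6 in TM (5.44 ± 0.79, adjusted p = 2.82e-05).

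DNA replication genes rose for 16 of 35 members and fell for 1. *Rrm2*, the regulatory subunit of ribonucleotide reductase, read 6.13, 5.85, 2.06 and 6.78 in KC and 13.31, 10.17, 10.78 and 12.88 in TM (6.84 ± 1.08, adjusted p = 6.45e-05). *Mcm7*, of the replicative helicase, read 10.05, 9.96, 10.49 and 10.24 in KC and 14.33, 12.83, 12.87 and 13.87 in TM (3.23 ± 0.31). *Tk1*, thymidine kinase, rose by 5.66 ± 0.78 and *Pole*, the leading-strand polymerase, by 5.14 ± 0.63. The sliding clamp *Pcna* was already high in KC (12.67 to 13.8) and reached 13.8 to 14.96 in TM (0.98 ± 0.34). *Tyms*, thymidylate synthase, differed by -0.86 ± 0.38. The E2F element TTTCGCGC was in 8 of 36 promoters of the list (22.2%, against 0.323% of all). The count of rises was 5 without KC replicates 3 and 4, 25 without TM replicates 2 and 3, and 3 when only TM and KC were fitted.

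DNA repair genes rose for 6 of 16 members and fell for 1. The rises were 3 without KC replicate 4, 1 without KC replicates 3 and 4, and 0 when only TM and KC were fitted (limma, adjusted). *Exo1*, an exonuclease of mismatch and break repair, rose by 5.66 ± 0.92 and *Rad51ap1*, a partner of the recombinase, by 4.28 ± 0.59. Of 18 genes of ribosome biogenesis and Myc targets none met both thresholds, while 8 were higher and 1 lower at limma's adjusted p under 0.05 with no minimum fold, and 11 stood higher in every TM library than in any KC library, against 25.3% of all genes. *Npm1*, nucleophosmin, read 14.74, 14.86, 13.31 and 13.55 in KC and 15.87, 15.65, 15.63 and 15.57 in TM (1.79 ± 0.37, adjusted p = 0.000938). *Myc* itself was not higher (9.58 to 10.5 in TM, 10.28 to 11.21 in KC).

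Inhibitors of cyclin-dependent kinases went both ways. *Cdkn2b* (p15) read 10.25, 10.34, 10.44 and 10.41 in KC and 3.81, 2.14, 2.11 and 6.23 in TM (-6.81 ± 0.86, adjusted p = 6.4e-06), and *Cdkn1c* (p57) fell by 5.43 ± 0.6. *Cdkn2c* (p18) rose, from 3.01, 3.76, 3.35 and 5.15 in KC to 10.42, 8.12, 8.62 and 10.38 in TM (5.43 ± 0.59, adjusted p = 1.16e-06). *Cdkn1b* (p27) differed by 0.21 ± 0.2, and *Cdkn1a* (p21), a target of p53, by -2.07 ± 0.53 (adjusted p = 0.00483). The call of *Cdkn2a*, whose locus encodes p16, was lost without KC replicate 3, KC replicate 4, TM replicate 2 or TM replicate 3.

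**Figure D4:**
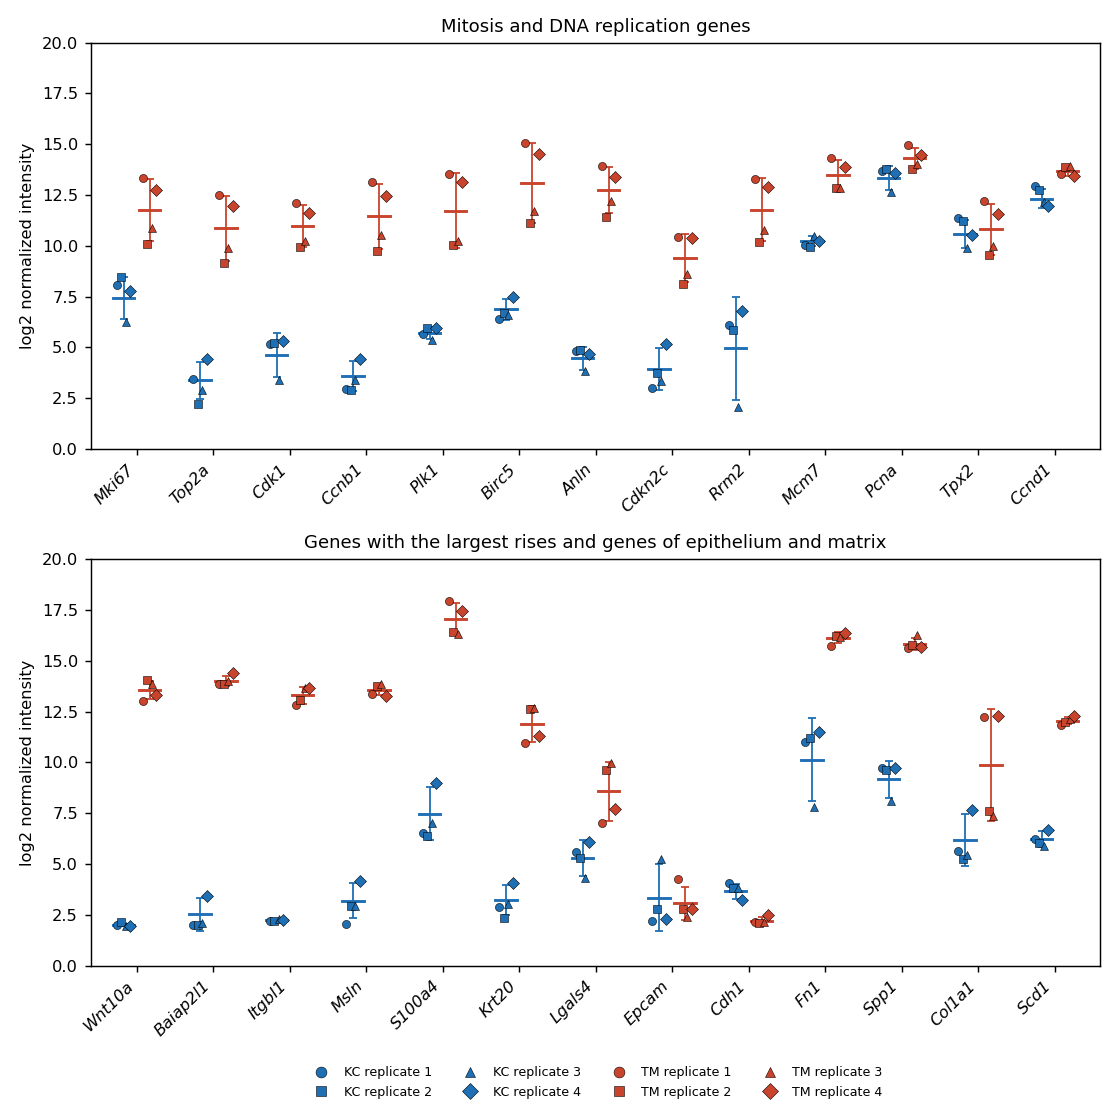
Log2 intensity (y axis) of cell cycle genes (upper panel) and of tumor, epithelial and matrix genes (lower panel) in each KC (blue) and TM (red) library. Points are libraries, bars the group mean and lines the SD (KC n = 3, TM n = 4). TM replicates 1 and 4 lie above 2 and 3 for *Mki67*, *Cdk1* and *Col1a1*, while *Wnt10a* is at background in all 4 KC libraries and *Epcam* and *Cdh1* are at background in both groups.

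Apart from the lists, the 15 largest rises included 9 genes whose probes were not well above background on any KC array. *Wnt10a*, a secreted Wnt ligand (probe at chr1:74850633-74850692, mm9), read 1.99, 2.15, 1.96 and 1.95 in KC and 13.03, 14.05, 13.84 and 13.33 in TM, at least 195-fold higher (adjusted p = 5.41e-13). *Baiap2l1*, an actin and membrane adapter, was at least 255-fold higher, the integrin-like *Itgbl1* at least 124-fold and the galectin gene *Lgals7* at least 96.1-fold. *Msln*, mesothelin, read 2.03, 2.93, 2.94 and 4.17 in KC and 13.39, 13.77, 13.88 and 13.29 in TM (10.39 ± 0.85, adjusted p = 4.14e-08). *Il1rl1*, the receptor for interleukin 33, read 4.79, 4.41, 3.23 and 6.21 in KC and 16.01, 13.55, 12.96 and 16.28 in TM (10.02 ± 0.93). *S100a4*, a calcium-binding protein of motile cells, read 6.54, 6.37, 7 and 8.97 in KC and 17.94, 16.44, 16.33 and 17.47 in TM (9.57 ± 1). The others included *Igfbp6*, *Cpe*, *Dynap*, *Serp2*, *Rarres1*, *Pcdh19* and the homeobox gene *Irx1* (at least 34.9-fold). The SD among the TM libraries was 1.69 for *Il1rl1* and 0.25 to 0.79 for the others named here.

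The 15 largest falls were macrophage and immune genes with a few of other liver cells. *H2-Eb1*, *H2-Ab1*, *Clec4f*, *Spic*, *Cd5l*, *Cd40* and *Cxcl9* are described above. *Scimp*, a class II signaling adapter, was at least 401-fold lower and *Irg1*, which makes itaconate in activated macrophages, fell by 11.65 ± 0.87. *Slamf9* (-11.73 ± 1.03) and *Plbd1* (-11.58 ± 1.05) fell as well, and the transporter gene *Slco3a1* was at least 244-fold lower. *Cldn5*, an endothelial claudin, was at least 251-fold lower, and *Mup19* and *Mup17*, major urinary proteins of hepatocytes, at least 203-fold and 123-fold. The *Mup* genes are near-identical copies, so that their probes cannot assign a transcript to a single gene.

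Epithelial and intestinal genes rose for 2 of 24 members, near the 7.65% of all genes that rose, and fell for none. Of the 24, 13 were not well above background on any TM array. These included the adhesion genes *Epcam* (2.4 to 4.28 in TM) and *Cdh1* (2.11 to 2.5), the villus gene *Vil1*, the mucin gene *Muc2* and the intestinal transcription factor *Cdx2* (1.93 to 1.96). *Krt20*, a keratin of intestinal epithelium, had the largest rise of the list. It read 2.88, 2.32, 3.02 and 4.05 in KC and 10.97, 12.61, 12.69 and 11.28 in TM, at least 44.2-fold higher (limma, adjusted p = 8.38e-07). *Lgals4*, an intestinal galectin, read 7, 9.63, 9.99 and 7.73 in TM against 4.32 to 6.07 in KC (3.31 ± 0.56), a call lost without KC replicate 3.

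The mesenchymal genes were divided, 6 of 20 higher and 4 lower. *Prrx1*, a mesenchymal homeobox gene, rose by 4.05 ± 0.49, *Twist2* by 4 ± 0.6, *Twist1* by 3.58 ± 0.39 and *Snai2* by 3.05 ± 0.39. *Thbs1*, thrombospondin 1, fell by 5.59 ± 0.73. *Vim*, vimentin, read 15.27 to 16.9 in TM and 15.49 to 16.32 in KC (-0.01 ± 0.33). Without KC replicates 3 and 4, 4 genes rose and 2 fell.

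Matrix genes were as divided, 6 of 22 higher and 6 lower. *Lama5*, a laminin chain of epithelial basement membranes, read 7.16, 7.06, 7.03 and 7.53 in KC and 11.63, 13.96, 13.72 and 11.24 in TM (5.41 ± 0.53). *Fbln2*, a basement membrane fibulin, rose by 7.51 ± 0.93 and *Col1a2* by 4.62 ± 0.57. *Col1a1* spread too far to pass, at 12.22, 7.62, 7.37 and 12.26 in TM and 5.25 to 7.66 in KC (3.68 ± 1.27, adjusted p = 0.033). *Postn*, periostin, was at least 13.4-fold lower, and the basement membrane collagen gene *Col4a1* fell by 3.4 ± 0.49. Matrix proteases and their inhibitors rose for 3 of 16 genes and fell for 4, among them *Timp2* (4.93 ± 0.38) and *Mmp11* (5.03 ± 0.54), which rose, and *Mmp13* (-5.59 ± 0.76), which fell. The falls were 2 without KC replicate 3 or TM replicate 3 and 7 without TM replicate 4. *Plau*, urokinase, read 9.82 and 10.29 in TM replicates 1 and 4 but 2.26 and 2.21 in replicates 2 and 3 (11.9 to 12.12 in KC) and did not pass.

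Wnt pathway genes rose for 2 of 21 members and fell for 3, against 7.65% and 10.2% of all genes. *Dkk2*, a secreted Wnt antagonist, read 2.1, 2.11, 2.12 and 2.1 in KC and 11.29, 9.93, 9.75 and 11.14 in TM, at least 21.7-fold higher. *Sox9*, a progenitor transcription factor and Wnt target of intestine, read 7.6, 10.53, 10.24 and 8.5 in TM and was at least 8.79-fold higher. The usual feedback targets *Axin2* and *Lgr5* were each well above background on 1 TM array and no KC array, with 2.24 to 4.76 and 2.2 to 6.27 in TM. *Cd44*, an adhesion receptor of macrophages and stem cells, fell by 2.36 ± 0.18 and *Nkd1* was at least 1.58-fold lower. Of 17 oncofetal and progenitor genes 1 rose, *Anxa1* (annexin A1, 2.22 ± 0.27), and 3 fell, against the same 7.65% and 10.2% of all genes. *Mest*, an imprinted gene, was at least 7.42-fold lower, and *Hmga2*, a chromatin protein of embryonic and tumor cells, was higher in all TM libraries (11.53 to 12.69 against 9.3 to 10.77) by just under 4-fold (1.95 ± 0.41).

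Glycolysis had a median difference of 0.07 over 19 genes, 3 higher and 1 lower, against 7.65% and 10.2% of all genes. The lower gene, *Slc2a1*, a glucose transporter (-2.07 ± 0.38, adjusted p = 0.000311), lost its call without KC replicate 3, TM replicate 2 or TM replicate 3, and no gene of the list was called lower with normexp, 75th percentile scaling or the deposited values. *Pfkm*, the muscle-type phosphofructokinase, read 5.83, 5.78, 6.11 and 6.37 in KC and 10.26, 10.24, 10.27 and 10.47 in TM (4.22 ± 0.33, adjusted p = 2.67e-08), and *Aldoc*, aldolase C, rose by 3.59 ± 0.51. *Gapdh* (-0.07 ± 0.26), *Ldha* (-0.17 ± 0.33) and *Pgk1* (-0.22 ± 0.2) did not pass, and *Hk2*, hexokinase 2, differed by -1.76 ± 0.4.

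The tumor libraries split the same way in several programs. Macrophage marker list means were 8.64 and 9.3 in TM replicates 1 and 4 against 6.31 and 5.47 in replicates 2 and 3, with 12.32 to 13.5 in KC. The mitosis means were 11.49 and 10.92 against 8.62 and 9.13, with 5.06 to 5.79 in KC, and the DNA replication means 12.16 and 11.6 against 9.98 and 10.37, with 8.66 to 8.96. Kupffer identity means were 5.38 and 5.5 against 3.96 and 4.01. In each of these lists all TM libraries lay on the same side of all KC libraries.

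**Figure D5:**
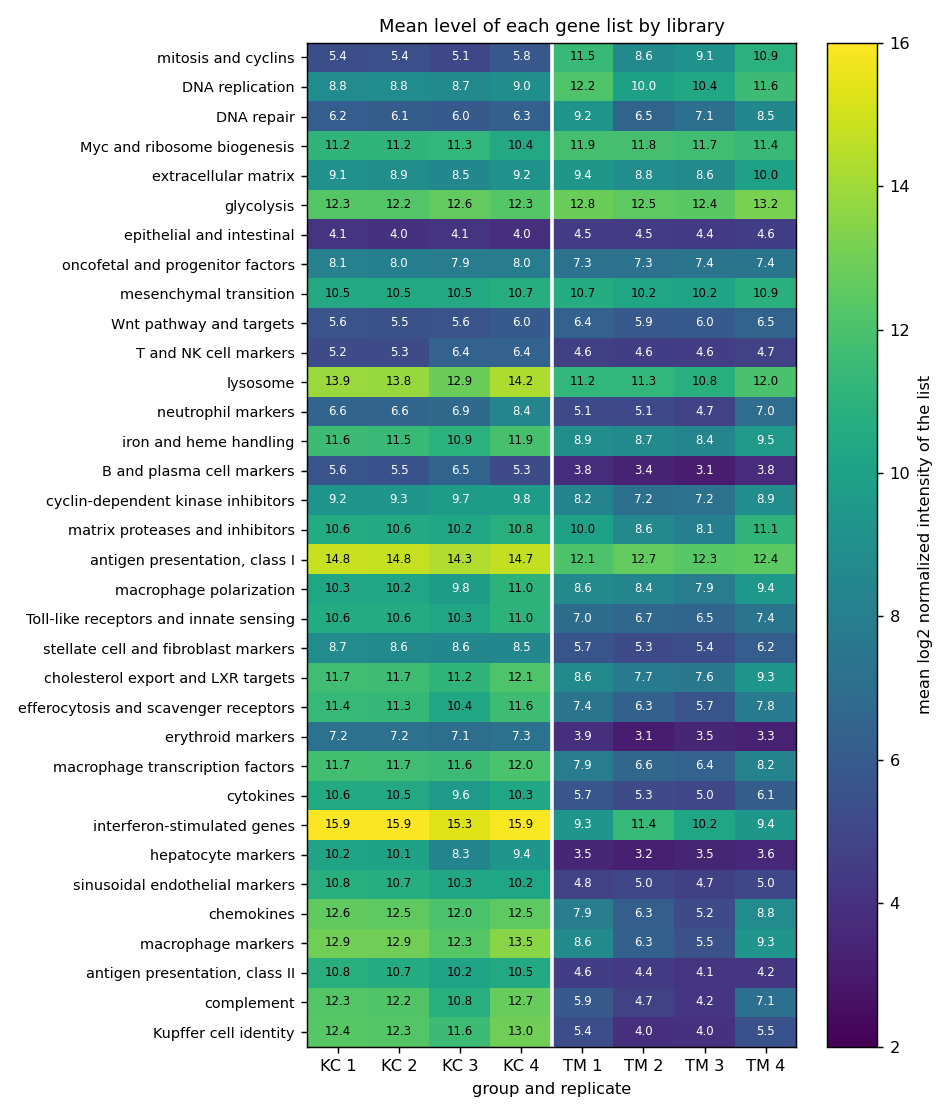
Mean log2 intensity of each gene list (rows) in the 4 KC and 4 TM libraries (columns, color scale in log2 units). The interferon list is 15.29 to 15.9 in KC and 9.28 to 11.38 in TM, the mitosis list 5.06 to 5.79 in KC and 8.62 to 11.49 in TM, and TM replicates 1 and 4 are higher than 2 and 3 in the macrophage and mitosis rows.

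The Cy5 channels offered a second comparison, the primary tumor (TP) against Kupffer cells of tumor-bearing livers (KT). It shares arrays with TM against KC, and because KC 1 and KT 4, and KC 4 and KT 1 and 2, lay under the limit for counting as 1 sample, it may share Kupffer samples too. TM replicates 1 and 4 also lay closer to some TP libraries than to each other, though no TM and TP pair was under that limit. Each comparison's own values are therefore given side by side. There 1707 genes were higher (7.61%) and 2253 lower (10%). *Clec4f* differed by -12.69 in the liver metastasis comparison and by -13.61 in the primary tumor comparison, *H2-Eb1* by -13.27 and -13.36, *Mki67* by 4.33 and 4.8, and *Wnt10a* by 11.57 and 10.94. The mitosis list had 30 and 31 rises and the interferon list 24 and 24 falls. The macrophage markers had 24 and 17 falls. A few genes were less alike in size: *Ccl2* differed by -4.8 and -3, *Ctgf*, a matricellular growth factor, by -5.37 and -8.38, and *Lama5* by 5.41 and 3.13. These differences between the comparisons were not tested.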

How the data were processed

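Two-color Agilent arrays, 16 of them with 32 channels, were read by the authors with Feature Extraction 10.7.3.1 against mm9, per the submitters' processing notes. The authors deposited scanner files, whose processed signal is a background-corrected, dye-normalized intensity, together with their series-wide linear intensity values, which were used as an alternative. Control and outlier spots were left out, spots of a probe were averaged, and log2 processed signals were quantile-normalized over the 32 channels, each treated as its own sample. Genes, 22443 of them, were named through RefSeq symbols or synonyms and represented by the probe with the highest mean. limma 3.58.1 in R 4.3.3 fitted all 8 groups, and TM was set against KC with Benjamini-Hochberg adjustment.

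Channels of a group whose differences were at most 1.5 times the spot noise were averaged and counted as 1 sample, a departure from the planned fit that was decided after the values were seen. The study describes the 4 replicates of each group as biological, whereas the labels name no separate animals for them. Counting KC replicates 1 and 2 as 1 sample departs from that description. The p-values measure the spread between these samples, which may be technical. Where no array of a group held a gene well above background, the fold is a bound. Bounds were computed per channel after loess and Aquantile normalization, a scale other than that of the printed levels. They set the brighter group's mean against the mean, over the dimmer group's arrays, of the gene's own value or the array's lowest value among probes with all spots well above background, whichever was higher. With no balanced dye swap they are open to dye bias. No filter on low values was applied. Members and the 34 lists were chosen with earlier results of these data known. Named genes were list members, plus the 15 largest rises and 15 largest falls among called, non-overlapping genes that every array of the brighter group held above background, leaving out RIKEN, predicted, lincRNA and unnamed entries. Some genes that the rule names are not reported here. Genes named outside this rule were chosen after their values were seen. Alternatives covered background correction, normalization, probe choice, dim probes, the array and the replicate number as blocks, the samples in the fit, the methods' t-test, the thresholds and each library left out. The fit was tested on simulated data. Promoters were taken from RefSeq (GRCm38.p6) and not joined to mm9 positions. Other tools were Python 3.11.15, pandas 2.3.3, numpy 2.4.6 and matplotlib 3.10.9.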

Additional observations from a re-analysis of the deposited data

Results flagged for a closer look

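Among the 4 TM libraries, 12 of 430 sets of values tested (382 list genes, 34 list levels and 15 genes named by size, with overlaps) had 1 library far from the other 3, measured as its gap to the nearest library over the whole range. Chance gives about 1 in 20 such groups, and KC, with 3 samples, was not tested. TM replicate 4 stood apart for *Srm* (gap over range 0.88, low at 12.73), *Lum* (0.898, high at 10.25), *Pfkm* (0.87, 10.47), *Lgmn* (0.838, 14.32), *Ctsb* (0.956, 15.33) and *Il4ra* (0.841, 6.39). TM replicate 1 stood apart for *Wdr12* (0.912, high at 13.04), *Abca1* (0.832, low at 9.33), *Itgb5* (0.847, low at 10.96) and *Gpi1* (0.905, low at 15.18). TM replicate 2 was high for *Scarb2* (0.889, 9.97) and TM replicate 3 was low for *Esrp1* (0.831, 4.57).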

How the results depend on the processing

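Leaving out 1 library at a time gave 2804 to 3204 probes higher and 3142 to 3578 lower, and 1487 to 1725 genes higher and 1986 to 2299 lower. Of 365 called genes in the lists or named by size, 50 lost their call without some library, 37 of them without KC replicate 4 and 28 without KC replicate 3. Probes higher and lower numbered 1720 and 2305 with normexp and quantile (1085 genes higher), 1845 and 2280 with normexp, loess and Aquantile, 1424 and 1807 with only TM and KC fitted (genes 791 and 1164), 456 and 681 with the methods' t-test (genes 262 and 448), 1733 and 2372 without KC replicates 3 and 4 (964 genes higher), 764 and 1812 at 16-fold (genes 499 and 1276), and 10134 and 7966 at an adjusted p under 0.05 whatever the fold (genes 4966 and 4480). In the order DNA replication, Kupffer identity, complement, interferon, macrophage markers, macrophage transcription factors and mitosis, the calls were 3, 9, 5, 12, 6, 5 and 1 with only TM and KC fitted, and 2, 6, 1, 4, 0, 3 and 0 with the t-test. Without KC replicates 3 and 4, DNA replication had 5, complement 8, macrophage markers 7 and mitosis 14 calls. DNA replication had 25 without TM replicates 2 and 3, 3 at 16-fold and 26 at an adjusted p under 0.05, where macrophage transcription factors had 17. With only TM and KC fitted, the falls numbered 1 for cholesterol export, 7 for cytokines, 9 for chemokines, 4 for efferocytosis, 3 each for iron handling and polarization, 1 each for matrix and oncofetal genes, 11 for hepatocyte and 10 for endothelial markers, and 0 for matrix proteases and kinase inhibitors by limma. In that fit the rises numbered 3 for matrix, 1 each for mesenchymal, polarization, Wnt, epithelial and glycolysis genes, and 0 for kinase inhibitors and stellate markers. Without KC replicates 3 and 4, 3 matrix genes, 4 polarization genes, 1 protease and 1 kinase inhibitor fell, and 1 glycolysis, 1 epithelial, 0 oncofetal and 0 efferocytosis genes rose. Without TM replicates 2 and 3, 11 DNA repair genes rose and 7 lysosomal genes fell. With normexp, 3 DNA repair genes rose and 1 neutrophil marker fell, and with loess and Aquantile added 4 polarization genes and 11 hepatocyte markers fell. The gene Ccl19 changed direction with its most variable probe (-1.35, adjusted p = 0.0266 in limma). Scaling to the 75th percentile moved the median of all probes to 0.46, from 0.06, with 3894 probes higher and 3579 lower, so that 52.1% of calls were higher, against 47.1% as reported, 29.7% at 16-fold, 32.7% with the replicate block and 56% at an adjusted p under 0.05. The causes were not tested.

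Same-numbered KC and TM libraries had correlations of their deviations of -0.04, 0.13, -0.09 and 0.16, so the numbers did not pair the samples. With the replicate number as a block, 212 probes were higher and 437 lower (genes 131 and 288), and the lists in the order above had 0, 5, 2, 3, 0, 4 and 0 calls.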

Other observations

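Genes of the Y chromosome, chosen after their values were seen, were low in the tumor libraries. *Ddx3y*, an RNA helicase gene, read 9.62 to 10.29 in KC and 4.01, 2.18, 2.18 and 4.3 in TM, at least 12.3-fold lower, and 2.32 to 3.64 in the primary tumor libraries. No TM array held it well above background. *Eif2s3y*, a translation initiation factor gene, read 10.18 to 11.36 in KC and 4.31, 1.96, 1.96 and 5.33 in TM, where 1 of 4 arrays held it well above background. Both genes read higher in TM replicates 1 and 4 than in 2 and 3, as the macrophage markers did, and a link was not tested. *Uty* was at least 1.76-fold lower, and *Kdm5d* was not well above background in either group.

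*Clec4f* read 12.8 to 12.82 in EC, 14.36 to 14.58 in IC replicates 1 to 3 and 15.92 in IC replicate 4. The Kupffer identity list had means of 10.93 to 11, 11.78 to 11.95 and 12.87 in the same order.

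Levels of different probes are otherwise not compared, but those of *Ung*, which removes uracil from DNA, and *Ephb3*, an ephrin receptor, ran almost in parallel. *Ung* read 17.05, 17, 16.07 and 17.1 in KC and 13.35, 13.8, 13.79 and 13.51 in TM. *Ephb3* read 16.9, 17, 16.08 and 17.07 in KC and 13.22, 13.69, 13.69 and 13.31 in TM. Both were called lower and counted separately, *Ung* among DNA repair and *Ephb3* among Wnt pathway genes. Why they ran alike was not tested.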
